A study of Mus musculus with 55 samples.

Results

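Transcripts of 7 genes for methyltransferases of lysine 36 and lysine 9 of histone H3 (Setd2, Nsd1, Setdb1, Ehmt1, Ehmt2, Suv39h1 and Suv39h2) were followed through the single-oocyte RNA-seq libraries. They were chosen by name and not by a rule on measured values, though earlier results of these data were known. All 7 of 7 were found among the 51734 genes of every oocyte table. Each library held the RNA of 1 mouse oocyte, either a fully grown oocyte (FGO) taken from an adult ovary of a female 10 to 12 weeks old or an oocyte at metaphase of the second meiotic division (MII). The labels give no age for the females of MII oocytes. In its methods for fertilization the study describes MII oocytes taken from oviducts after inhibin antiserum and human chorionic gonadotropin were injected. It describes no such treatment for FGOs. Stage, age, treatment and collection thus cannot be told apart between FGOs and MII oocytes. The wild type gave 18 FGOs and 10 MII oocytes, and each of 3 mutants gave 8 FGOs: Dnmt3L ADD/ADD (genotype Dnmt3a +/+, Dnmt3L D124A/D124A), Dnmt3a ADD/ADD (Dnmt3a ADA/ADA, Dnmt3L +/+) and the double mutant, homozygous for both alleles ([Dnmt3a ADD/ADD, Dnmt3L ADD/ADD]). The alleles change residues of the ADD domain, the part of DNMT3A and DNMT3L that binds histone H3 when lysine 4 carries no methyl group, and they are present in every cell of the animal from conception, so oocyte growth also took place in mutant ovaries. How many females gave the oocytes of a group is not stated, so p-values measure the spread between single oocytes.

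As background, SETD2 travels with elongating RNA polymerase II and is the enzyme of H3K36 trimethylation, whereas NSD1 adds the lower methylation states of the same lysine. Both states are bound by the PWWP domain of DNMT3A, and in growing mouse oocytes H3K36 methylation over transcribed regions is known to guide de novo DNA methylation. On H3K9, SETDB1 trimethylates retrotransposons that TRIM28 and zinc-finger proteins bind, EHMT1 (GLP) and EHMT2 (G9a) act together as a dimer for mono- and dimethylation of euchromatin, and the paralogs SUV39H1 and SUV39H2 trimethylate pericentromeric heterochromatin.

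In mm10 coordinates the genes lie at chr9:110532597-110618633 (Setd2, plus strand, 10754 exonic bases), chr13:55209782-55318325 (Nsd1, plus, 12784), chr3:95323525-95357202 (Setdb1, minus, 6853), chr2:24789928-24919614 (Ehmt1, minus, 8116), chr17:34898469-34914052 (Ehmt2, plus, 5489), chrX:8061171-8074760 (Suv39h1, minus, 5270) and chr2:3455815-3475031 (Suv39h2, minus, 4410). Exons of Setd2, Nsd1 and Ehmt2 touched no exon of another gene in the tables. Of the exonic bases of Suv39h1, 767 (14.6%) are shared with the antisense gene Gm14820, and of those of Suv39h2, 357 (8.10%) are shared with Dclre1c and 83 (1.88%) with Gm13184 on the other strand. Setdb1 shared 75 bases with Cers2 and 249 with Gm37500, and Ehmt1 shared 21 with Gm37139. The strand setting of the counting is not given in the sources used here, so reads of Suv39h1 and of Gm14820 cannot be told apart where they overlap.

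The Ehmt and Suv39h pairs each hold a more abundant gene and a gene at a far lower level in oocytes. The bases just upstream of these 4 genes are shown so that the pairs can be compared. The sequences are from RefSeq (GRCm38.p6, the assembly of mm10), cover at most 250 bases before the first start site, stop where the gene's exons in the count tables begin and are written 5′ to 3′ on the gene's strand. Capitals mark the CG dinucleotide, the target of the DNA methyltransferases, which reads the same on both strands.
Ehmt1 (chr2:24919615-24919859, minus): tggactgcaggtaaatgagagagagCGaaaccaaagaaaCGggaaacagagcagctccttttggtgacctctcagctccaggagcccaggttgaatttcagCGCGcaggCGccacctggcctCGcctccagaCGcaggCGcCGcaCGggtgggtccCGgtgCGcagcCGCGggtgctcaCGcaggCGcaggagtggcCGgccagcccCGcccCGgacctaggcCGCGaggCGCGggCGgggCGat
Ehmt2 (chr17:34898224-34898468, plus): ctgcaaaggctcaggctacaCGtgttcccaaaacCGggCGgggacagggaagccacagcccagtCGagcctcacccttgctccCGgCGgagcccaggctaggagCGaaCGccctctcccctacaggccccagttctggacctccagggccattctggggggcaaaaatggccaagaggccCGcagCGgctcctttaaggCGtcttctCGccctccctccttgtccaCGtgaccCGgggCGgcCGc
Suv39h1 (chrX:8074761-8075010, minus): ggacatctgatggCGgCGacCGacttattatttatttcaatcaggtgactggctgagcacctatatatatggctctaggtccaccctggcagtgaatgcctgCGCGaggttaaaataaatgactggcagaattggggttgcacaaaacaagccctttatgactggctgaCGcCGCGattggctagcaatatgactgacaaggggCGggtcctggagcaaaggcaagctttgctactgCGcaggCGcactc
Suv39h2 (chr2:3475032-3475236, minus): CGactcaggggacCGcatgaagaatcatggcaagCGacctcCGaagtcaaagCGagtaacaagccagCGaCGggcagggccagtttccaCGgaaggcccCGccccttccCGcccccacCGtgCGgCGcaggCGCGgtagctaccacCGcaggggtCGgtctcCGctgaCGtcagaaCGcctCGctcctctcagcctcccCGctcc
The Ehmt1 stretch held 25 CG in 245 bases and the Ehmt2 stretch 16 in 245. The Suv39h2 stretch held 22 CG in 205 bases, whereas that of Suv39h1 held 11 in 250. Among 32851 promoter entries of mouse genes, 10.2% had at least as many CG as Ehmt1 over the same number of bases, 24.6% as many as Ehmt2, 8.03% as many as Suv39h2 and 35.6% as many as Suv39h1. So in each pair the more abundant gene had the denser upstream stretch, and all 4 stood above the median of all entries, 6 CG per 250 bases. DNA methylation was not analysed here, and the letters say nothing of whether these sites were methylated. Setd2 and Setdb1 also had entries (31 and 13 CG in 250 bases), which made 6 of the 7 genes matched. Setdb1 had the highest mean level of the 7 in wild-type FGOs and fewer CG than Ehmt2. The order within the pairs thus did not hold over all members.

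Total counts ran from 7832458 to 23739871 per library, which left no member at 0 in any of the 52 libraries. The libraries differ by a technical feature recorded by the study, the mapped fraction of the reads, which lay under 80% in wild-type FGO replicates 1 to 8 and in all 8 double mutant FGOs, at least 80% in wild-type FGO replicates 9 to 18 and in all 8 Dnmt3L ADD/ADD FGOs, and mixed in Dnmt3a ADD/ADD FGOs (3 under, 5 at least) and MII oocytes (3 under, 7 at least). Between these sets of wild-type FGOs, 27.7% of the 15726 genes tested differed, and 3 of the 7 members did. With the sign taken as the set of at least 80% minus the set under 80%, Suv39h2 differed by -0.31 ± 0.06 (log2, SE, adjusted p = 0.000294 from edgeR), Ehmt1 by 0.18 ± 0.06 (adjusted p = 0.0145) and Setdb1 by 0.17 ± 0.06 (adjusted p = 0.0324). Ehmt2 had the widest difference, -0.77 ± 0.31, with an adjusted p of 0.0561 from edgeR. Where a value of the 7 genes against 1 set of wild-type FGOs changed a call, it is given beside the result. Between double mutant and Dnmt3L ADD/ADD FGOs genotype and library set cannot be told apart.

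Markers of the oocyte were abundant in all groups, with the summed level of 10 genes (Gdf9, Bmp15, Zp3 and others) at 7098 to 11310 CPM (counts per 1000000) in wild-type FGOs, 7044 to 9215 in Dnmt3L ADD/ADD FGOs, 6520 to 8493 in Dnmt3a ADD/ADD FGOs, 10173 to 11503 in double mutant FGOs and 7195 to 7927 in MII oocytes. Against wild-type FGOs, 6 of the 10 were lower in Dnmt3L ADD/ADD FGOs, 7 lower in Dnmt3a ADD/ADD FGOs, 3 higher in double mutant FGOs and 5 lower in MII oocytes (edgeR, adjusted p under 0.05). In double mutant FGOs 10 of 10 were higher than in the Dnmt3a mutant (beside 16% of all genes) and 9 of 10 higher than in the Dnmt3L mutant (beside 12.8%). Of all genes, 5.51% were higher in double mutant than in wild-type FGOs. The sum of 16 granulosa and cumulus markers was far lower and moved between groups, from 141 to 368 CPM in wild-type FGOs, 122 to 189 in Dnmt3L ADD/ADD FGOs, 124 to 251 in Dnmt3a ADD/ADD FGOs, 119 to 144 in double mutant FGOs and 107 to 151 in MII oocytes. Of these 16 genes, 14 passed the filter on low counts, and 3, 6, 10 and 10 of them were lower than in wild-type FGOs in those 4 groups (edgeR, adjusted p under 0.05). Has2, named after its values were seen, was higher in Dnmt3a ADD/ADD FGOs (1.27, adjusted p = 0.0134 from edgeR), in double mutant FGOs (1.39, adjusted p = 0.0101) and in MII oocytes (0.92, adjusted p = 0.0348). Ptx3 was at 0 in all FGOs, and Inhbb and Amh in all MII oocytes. The sum of 9 markers of other ovarian somatic cells lay at 61.8 to 111 CPM in wild-type FGOs, 73.3 to 92.6 in the Dnmt3L mutant, 79.2 to 127 in the Dnmt3a mutant, 47.4 to 70.0 in the double mutant and 69.1 to 94.2 in MII oocytes. Of the 7 tested, 1, 2, 6 and 5 were lower than in wild-type FGOs in those 4 groups. Of all genes, 3.06%, 7.61%, 6.74% and 22.6% were lower in the same comparisons. A further 2 were higher in the Dnmt3a mutant (Col1a2 and Pecam1, named after their values were seen), beside 8.06% of all genes. Acta2 was at 0 in all double mutant FGOs and MII oocytes, and Cyp17a1 in all MII oocytes. The sums also differed by class of mapped reads within wild-type FGOs. Medians under 80%, of at least 80% and in the double mutant were 70.5, 89.5 and 64.2 CPM for the other somatic markers. They were 10134, 9212 and 10778 CPM for the oocyte markers and 204, 190 and 132 CPM for the granulosa and cumulus markers. The part of these cells, and of the oocyte markers' shifts, in the values of the 7 genes was not tested.

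To compare genes with each other, counts were scaled by TMM library sizes and divided by the exonic length (RPKM, reads per kilobase of exon and 1000000 reads). In wild-type FGOs 3 enzymes stood at nearly the same level. Setdb1 was at 56.9 ± 6.04 RPKM (SD, n = 18), Nsd1 at 55.4 ± 8.27 and Setd2 at 53.4 ± 4.95, each above 93.8% or more of the 15784 genes tested. Suv39h2 followed at 35.0 ± 5.76 RPKM and Ehmt1 at 12.3 ± 1.03 RPKM, the latter above 72.7% of the genes. Ehmt2 reached only 1.18 ± 0.71 RPKM (28 to 254 counts per oocyte) and Suv39h1 0.28 ± 0.13 RPKM (8 to 54 counts), above 30.5% and 10.3% of the genes. In the 18 oocytes Ehmt2 ran from 0.39 to 2.74 RPKM with a median of 0.93, a spread (coefficient of variation 60.4%) that no other member approached except Suv39h1 (45.1%). The other 5 varied by 8.40 to 16.5%. Within the library sets, Ehmt2 varied by 61.0% under 80% and by 32.7% at 80% or more, and Suv39h1 by 51.3% and 40.8%.

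**Figure D1:**
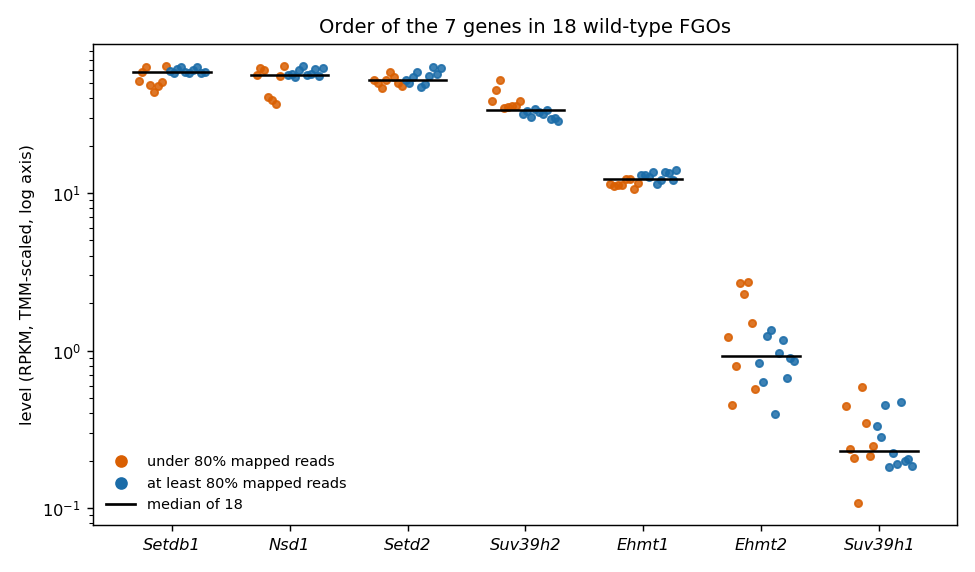
Level in RPKM (log axis) of each of the 7 genes in 18 wild-type FGOs, 1 point per oocyte, coloured by the share of mapped reads, with a line at the median. Setdb1, Nsd1 and Setd2 share the top, between 36.7 and 64.1 RPKM, and Suv39h1 lies lowest, between 0.11 and 0.59 RPKM.

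Neighbours in this order were compared inside each oocyte by an exact two-sided sign-flip test over the 18 wild-type FGOs, with Benjamini-Hochberg adjustment over 6 pairs. Setdb1 was higher than Nsd1 in 12 of 18 oocytes (mean log2 ratio 0.05 ± 0.14 SD, adjusted p = 0.188 by the exact test), and Nsd1 higher than Setd2 in 11 of 18 (0.04 ± 0.30, adjusted p = 0.571 by the exact test), so these 3 genes did not separate beyond their spread. Setd2 exceeded Suv39h2 in 17 of 18 oocytes (log2 ratio 0.62 ± 0.31, adjusted p = 3.43e-05 by the exact test). Suv39h2 exceeded Ehmt1, Ehmt1 exceeded Ehmt2 and Ehmt2 exceeded Suv39h1 in 18 of 18 oocytes each, with mean log2 ratios of 1.5, 3.58 and 1.92 (adjusted p = 1.53e-05 each by the exact test). The same 4 steps separated in both sets of wild-type FGOs. Since 14.6% of the exonic bases of Suv39h1 are shared with Gm14820, which stood at 50.9 ± 5.17 RPKM (SD, n = 18), the Suv39h1 value depends on how reads in the shared bases were assigned.

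**Figure D2:**
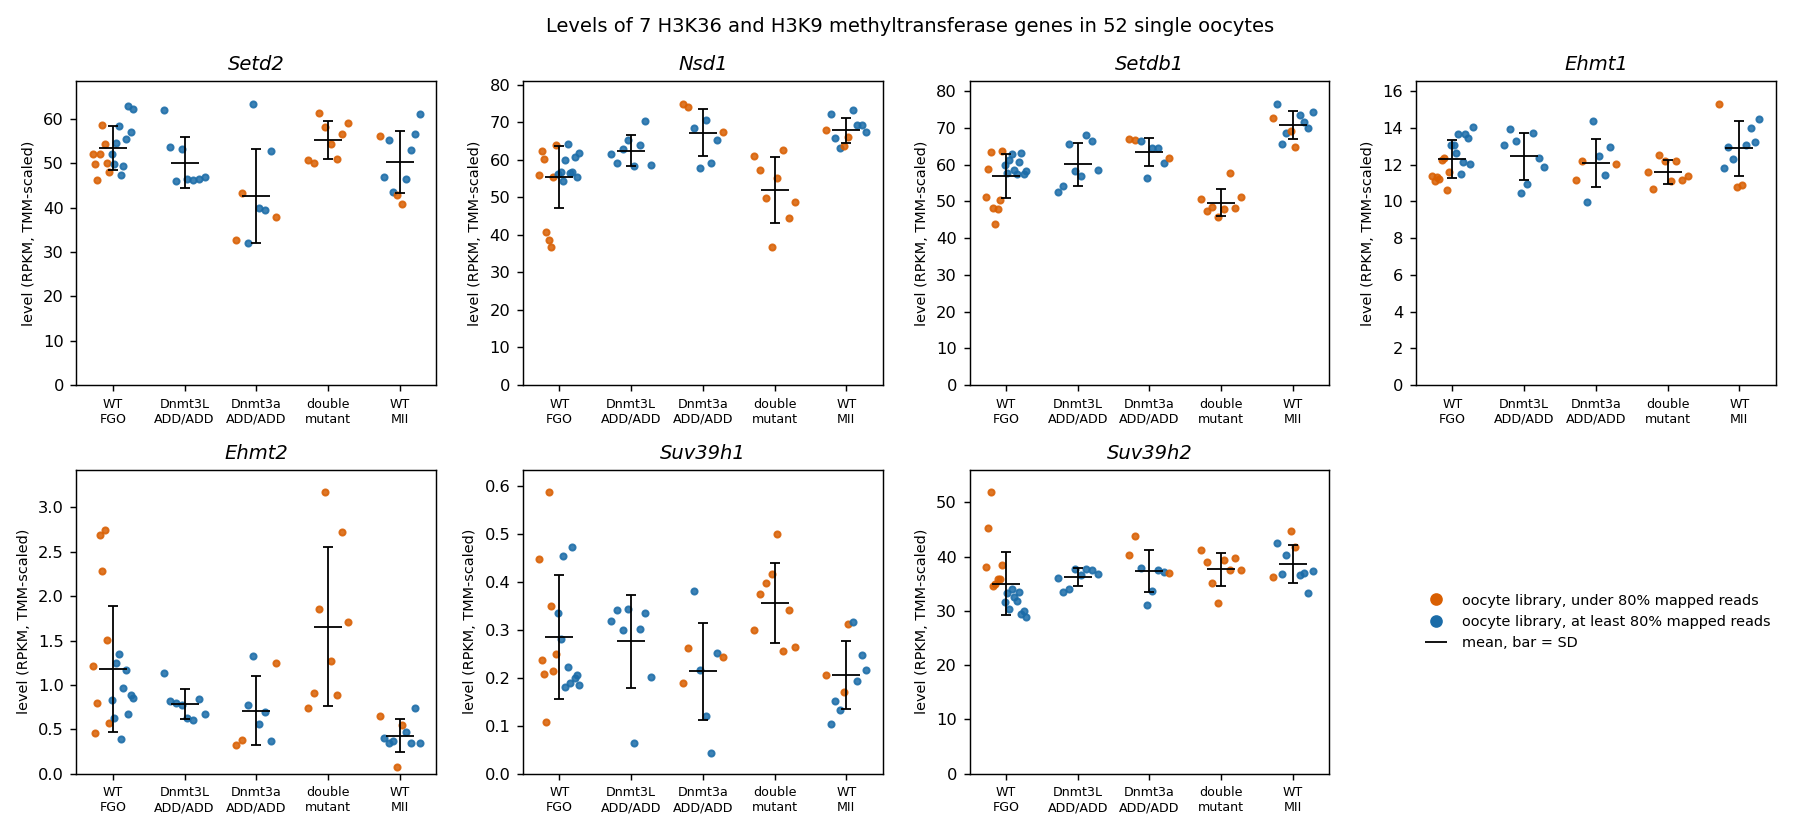
Level in RPKM of each gene in 52 single oocytes by group (1 panel per gene, each axis from 0, 1 point per oocyte, coloured by the share of mapped reads, black line and bar for mean and SD). Setd2 falls below the wild-type range in 6 of 8 Dnmt3a ADD/ADD FGOs, and Setdb1 in all 10 MII oocytes lies above every wild-type FGO.

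The dominance of 1 paralog held in every group. Suv39h2 exceeded Suv39h1 and Ehmt1 exceeded Ehmt2 in all 52 oocytes. As a ratio of counts per length inside a library, which does not depend on scaling between libraries, Suv39h2 over Suv39h1 ran from 59.8 to 321 in wild-type FGOs (median 147) and Ehmt1 over Ehmt2 from 4.17 to 29.1 (median 13). In MII oocytes Ehmt1 over Ehmt2 ran from 17.8 to 148 (median 31.4), and the ranges of both stages overlap. The mean log2 ratio was 5.09 ± 0.85 (SD, n = 10) against 3.60 ± 0.82 (n = 18), a difference of 1.5 (adjusted p = 0.00048, two-sided permutation test, Benjamini-Hochberg over 12 tests of 3 ratios in 4 comparisons).

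The ratio between the H3K36 enzymes moved in 3 of the 4 comparisons. Setd2 over Nsd1 ran from 0.74 to 1.52 in wild-type FGOs (median 0.95), from 0.66 to 1.01 in Dnmt3L ADD/ADD FGOs (median 0.80), from 0.44 to 1.10 in Dnmt3a ADD/ADD FGOs (median 0.58), from 0.81 to 1.59 in double mutant FGOs (median 1.09) and from 0.62 to 0.90 in MII oocytes (median 0.73). Every range overlapped that of wild-type FGOs, and Dnmt3a ADD/ADD FGOs went lowest. On the log2 scale the mean lay 0.64 below wild-type FGOs in Dnmt3a ADD/ADD FGOs (difference -0.64, adjusted p = 0.00118, exact permutation test, n = 8 and 18), and in MII oocytes the difference was -0.40 (adjusted p = 0.00118, permutation test). In Dnmt3L ADD/ADD FGOs it was -0.28 (adjusted p = 0.0388, exact permutation test), and in double mutant FGOs 0.14 (adjusted p = 0.318, exact permutation test). Against wild-type FGOs of 1 library set the ratio stayed lower in Dnmt3a ADD/ADD FGOs and MII oocytes with either set, while for Dnmt3L ADD/ADD FGOs the call held against the set of at least 80%, their own (-0.23, adjusted p = 0.0277, exact permutation test), and not against the other (-0.34, adjusted p = 0.131, exact permutation test). Suv39h2 over Suv39h1 passed the threshold in no comparison against all wild-type FGOs, the nearest being MII oocytes (log2 difference 0.58, adjusted p = 0.0677, permutation test). That ratio passed it against the set of at least 80% (0.69, adjusted p = 0.0272, permutation test) and not against the other (0.44, adjusted p = 0.296, exact permutation test). Ehmt1 over Ehmt2 in double mutant FGOs was lower than in the set of at least 80% (-0.93, adjusted p = 0.0208, exact permutation test). It was not called against the set under 80%, their own (-0.20, adjusted p = 0.73, exact permutation test), or all 18 (-0.61, adjusted p = 0.136, exact permutation test).

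**Figure D3:**
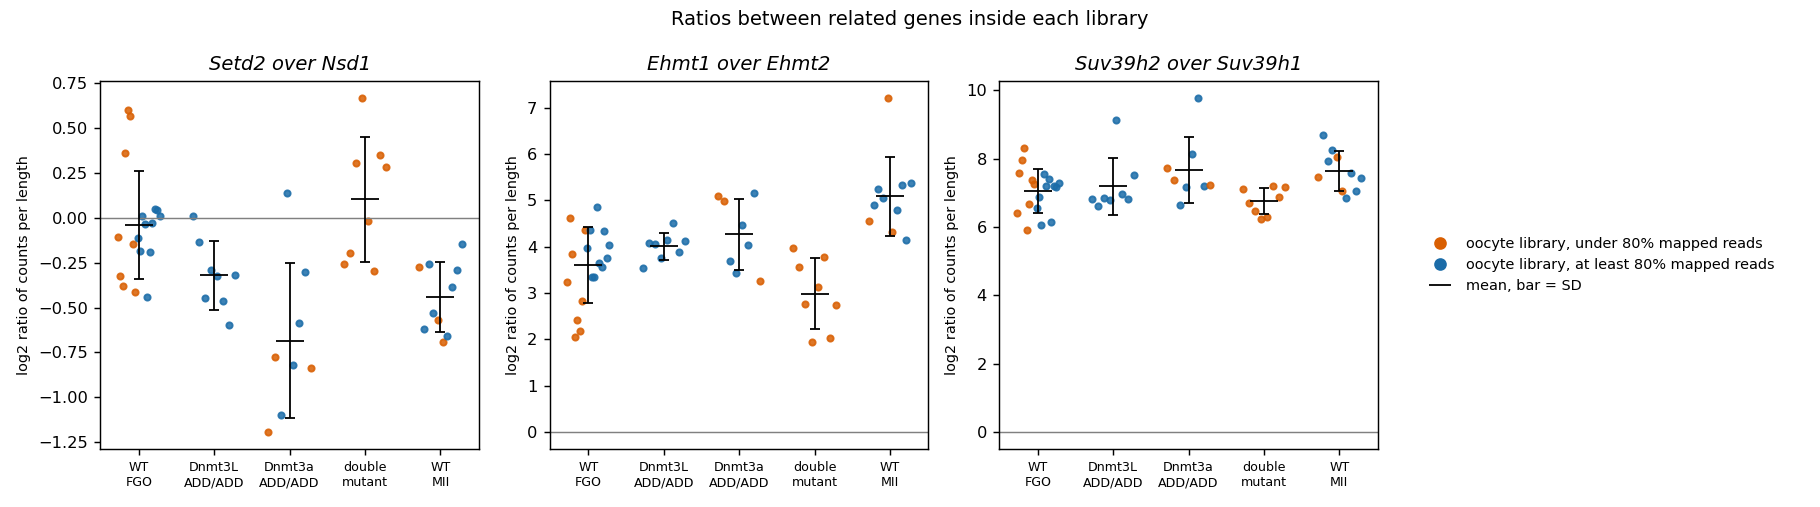
Log2 ratio of counts per length of Setd2 over Nsd1, Ehmt1 over Ehmt2 and Suv39h2 over Suv39h1 inside each of 52 libraries by group (points coloured by the share of mapped reads, black line and bar for mean and SD, grey line at equal levels). Setd2 over Nsd1 averages -0.68 in Dnmt3a ADD/ADD FGOs and -0.04 in wild-type FGOs.

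Dnmt3a ADD/ADD FGOs had less Setd2 and more Nsd1 than wild-type FGOs, and these were the 2 of 7 members called (adjusted p under 0.05) where 15.7% of all genes tested were. Setd2 ran from 46.2 to 62.9 RPKM in the 18 wild-type FGOs (median 52.1) and from 32.0 to 63.5 RPKM in the 8 mutant FGOs (median 39.8). Of the mutant oocytes 6 lay below the lowest wild-type FGO, while replicate 4, at 63.5 RPKM, lay above the highest. The log2 fold change was -0.32 ± 0.08 (SE, adjusted p = 0.00433 from edgeR). Nsd1 ran from 36.7 to 64.1 RPKM in wild-type FGOs (median 56.5) and from 57.8 to 75.0 RPKM in the mutant (median 68.0), where 6 of 8 oocytes lay above the highest wild-type FGO. Its log2 fold change was 0.28 ± 0.08 (SE, adjusted p = 0.0176 from edgeR). Neither member changed by more than 2-fold, a size that 2.05% of all genes reached.

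Both calls kept their direction against either set of wild-type FGOs. Among libraries of 1 class in both groups they were not called, at 3 against 8 oocytes under 80% (Setd2 -0.44, adjusted p = 0.0566, and Nsd1 0.48, adjusted p = 0.139, from edgeR) and at 5 against 10 of at least 80% (Setd2 -0.27, adjusted p = 0.157, and Nsd1 0.14, adjusted p = 0.0735, from edgeR). Nsd1 was also not called without Dnmt3a ADD/ADD replicate 1 (adjusted p = 0.0575 from edgeR) or replicate 2 (adjusted p = 0.0522). Setdb1, at 63.5 ± 3.73 RPKM (SD, n = 8), had 5 of 8 mutant oocytes above the highest wild-type FGO and missed the threshold (0.16 ± 0.06, adjusted p = 0.0545 from edgeR). Ehmt2 stood at 0.71 ± 0.39 RPKM, with a log2 fold change of -0.71 ± 0.31 (adjusted p = 0.104 from edgeR). Both were called against the 8 wild-type FGOs under 80% (Setdb1 0.25, adjusted p = 0.00856, and Ehmt2 -1.09, adjusted p = 0.0201, from edgeR). Neither was called against the 10 of at least 80% (0.09, adjusted p = 0.2, and -0.31, adjusted p = 0.499, from edgeR). With the class as a covariate Setdb1 was called (0.16, adjusted p = 0.0498 from edgeR). Leaving out replicate 4, the oocyte with the highest Setd2, brought Setdb1 (0.17, adjusted p = 0.0389 from edgeR) and Ehmt2 (-0.91, adjusted p = 0.0438) past the threshold. For Ehmt1, Suv39h1 and Suv39h2 the log2 fold changes were -0.02, -0.43 and 0.09, none of them called. Suv39h2 was called against the set of at least 80% (0.24, adjusted p = 0.00148 from edgeR).

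In Dnmt3L ADD/ADD FGOs 0 of 7 members were called where 6.13% of all genes were, and DESeq2 and edgeR's exact test also gave 0. Only Nsd1 had an unadjusted p under 0.05 (0.0452). It ran from 58.2 to 70.3 RPKM (median 62.1), with all 8 oocytes above the wild-type median and 2 above the highest wild-type FGO, and its log2 fold change was 0.17 ± 0.08 (SE, adjusted p = 0.211 from edgeR). Setd2 ran from 46.0 to 62.0 RPKM (median 46.7), with a log2 fold change of -0.09 ± 0.08 (adjusted p = 0.499 from edgeR). The mutants differed from each other in 0 of 7 members where 0.0127% of genes did (edgeR), and only Setd2 had an unadjusted p under 0.05 (-0.23 ± 0.09, p = 0.0158, adjusted p = 0.576 from edgeR). DESeq2 and edgeR's exact test gave 0 of 7 for that pair as well. Between Dnmt3L ADD/ADD and wild-type FGOs, Setdb1, Ehmt1, Ehmt2, Suv39h1 and Suv39h2 had log2 fold changes of 0.08, 0.02, -0.59, -0.04 and 0.05. Ehmt2 was called against the wild-type FGOs under 80% (-0.97, adjusted p = 0.0455 from edgeR) and not against those of at least 80% (-0.20, adjusted p = 0.758). Against the set of at least 80% mapped reads, to which all 8 mutant libraries belong, Suv39h2 was higher (0.20 ± 0.05, adjusted p = 0.013 from edgeR), at 36.3 ± 1.64 RPKM (SD, n = 8) beside 31.5 ± 1.81 RPKM (n = 10).

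Double mutant FGOs differed from wild-type FGOs in 1 of 7 members where 12.2% of all genes did. Setdb1 ran from 43.7 to 63.6 RPKM in wild-type FGOs (median 58.4) and from 45.7 to 57.7 RPKM in the double mutant (median 48.4), and no double mutant oocyte lay above the wild-type median or below the lowest wild-type FGO. The log2 fold change was -0.20 ± 0.06 (SE, adjusted p = 0.0217 from edgeR). All 8 double mutant libraries have under 80% mapped reads, and against the 8 wild-type FGOs of that set (53.4 ± 7.56 RPKM, SD) the log2 fold change was -0.11 (adjusted p = 0.61 from edgeR). Against the 10 of at least 80% it was -0.27 (adjusted p = 3.49e-05 from edgeR). Setd2 (0.04) and Nsd1 (-0.10) stood near the wild-type level in the double mutant. Ehmt2 was high in some of these oocytes, from 0.74 to 3.17 RPKM with a median of 1.49, and 1 of 8 exceeded the highest wild-type FGO. Its log2 fold change was 0.48 ± 0.29 (adjusted p = 0.265 from edgeR). The changes of Ehmt1, Suv39h1 and Suv39h2 were -0.09, 0.31 and 0.10. Against the 10 wild-type FGOs of at least 80%, Ehmt2 (0.88, adjusted p = 0.00871 from edgeR), Ehmt1 (-0.16, adjusted p = 0.029) and Suv39h2 (0.25, adjusted p = 0.000228) were called as well. In that setting 5799 of 15338 genes were called. Against the 8 under 80%, the set of the double mutant itself, none of the 3 was (0.11, adjusted p = 0.95, 0.01, adjusted p = 0.968, and -0.07, adjusted p = 0.801, from edgeR), where 217 of 15173 genes were.

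Between double mutant and Dnmt3a ADD/ADD FGOs 4 of 7 members were called where 30.9% of genes were, with Ehmt2 (log2 1.19 ± 0.35, adjusted p = 0.00931 from edgeR) and Setd2 (0.36 ± 0.09, adjusted p = 0.00288) higher in the double mutant and Nsd1 (-0.38 ± 0.10, adjusted p = 0.00373) and Setdb1 (-0.36 ± 0.07, adjusted p = 0.000217) lower. Ehmt2 was the 1 member past 2-fold, beside 5.86% of all genes. With the class of mapped reads as a covariate Setd2, Nsd1 and Setdb1 were still called, and Ehmt2 was not (0.84, adjusted p = 0.145 from edgeR). Suv39h1 reached 0.74 ± 0.31 (adjusted p = 0.0677 from edgeR), which passed the threshold without Dnmt3a ADD/ADD replicate 3 (0.92, adjusted p = 0.0306). Between double mutant and Dnmt3L ADD/ADD FGOs 3 of 7 were called where 24.2% of genes were, namely Ehmt2 (1.07 ± 0.35, adjusted p = 0.024 from edgeR), Nsd1 (-0.27 ± 0.10, adjusted p = 0.0406) and Setdb1 (-0.28 ± 0.07, adjusted p = 0.0037). Ehmt2 was again the 1 member past 2-fold, beside 4.03% of all genes. With the class as a covariate, a fit in which only the wild-type and Dnmt3a ADD/ADD libraries separate class from genotype, 0 were called by edgeR and 3 (Setd2, Setdb1 and Suv39h2) had an unadjusted p under 0.05. Over all genes 186 of 15726 were called in that fit. Ehmt2 was not called without double mutant replicate 4 (0.88, adjusted p = 0.08 from edgeR) or replicate 7 (0.93, adjusted p = 0.0622). The Nsd1 call was lost without any 1 of 8 libraries (Dnmt3L ADD/ADD replicates 3, 4, 6 and 7 and double mutant replicates 3, 4, 7 and 8), with log2 fold changes down to -0.20.

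Whether the Dnmt3a mutation had the same effect with and without the Dnmt3L mutation was tested as 1 contrast of the 4 genotypes. The effect differed for 4 of 7 members where 35.6% of all genes tested did, 2 with a higher and 2 with a lower value. Setd2 changed by -0.32 ± 0.08 from wild-type to Dnmt3a ADD/ADD FGOs and by 0.13 ± 0.09 from Dnmt3L ADD/ADD to double mutant FGOs, which gave a difference of effects of 0.45 ± 0.12 (log2, SE, adjusted p = 0.00322 from edgeR). Nsd1 had the opposite sign (-0.55 ± 0.13, adjusted p = 0.00106 from edgeR), and so did Setdb1 (-0.44 ± 0.09, adjusted p = 0.000255). Ehmt2 had the widest difference of effects (1.78 ± 0.47, adjusted p = 0.00298 from edgeR). These 4 calls held against either set of wild-type FGOs and without any single library. Neither check balances the class of mapped reads. All double mutant libraries lie under 80% and all Dnmt3L ADD/ADD libraries at 80% or more in both. With the class as a covariate 2226 of 15726 genes were called. Setd2, Nsd1 and Setdb1 were called in that fit (0.62, -0.48 and -0.34), whereas Ehmt2 was not (1.16, adjusted p = 0.151 from edgeR). Suv39h2, at -0.05 (adjusted p = 0.778 from edgeR), was called with that covariate (-0.35, adjusted p = 0.0193) and with wild-type FGOs of at least 80% alone (-0.20, adjusted p = 0.0486). It had the opposite sign with those under 80% (0.13).

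**Figure D4:**
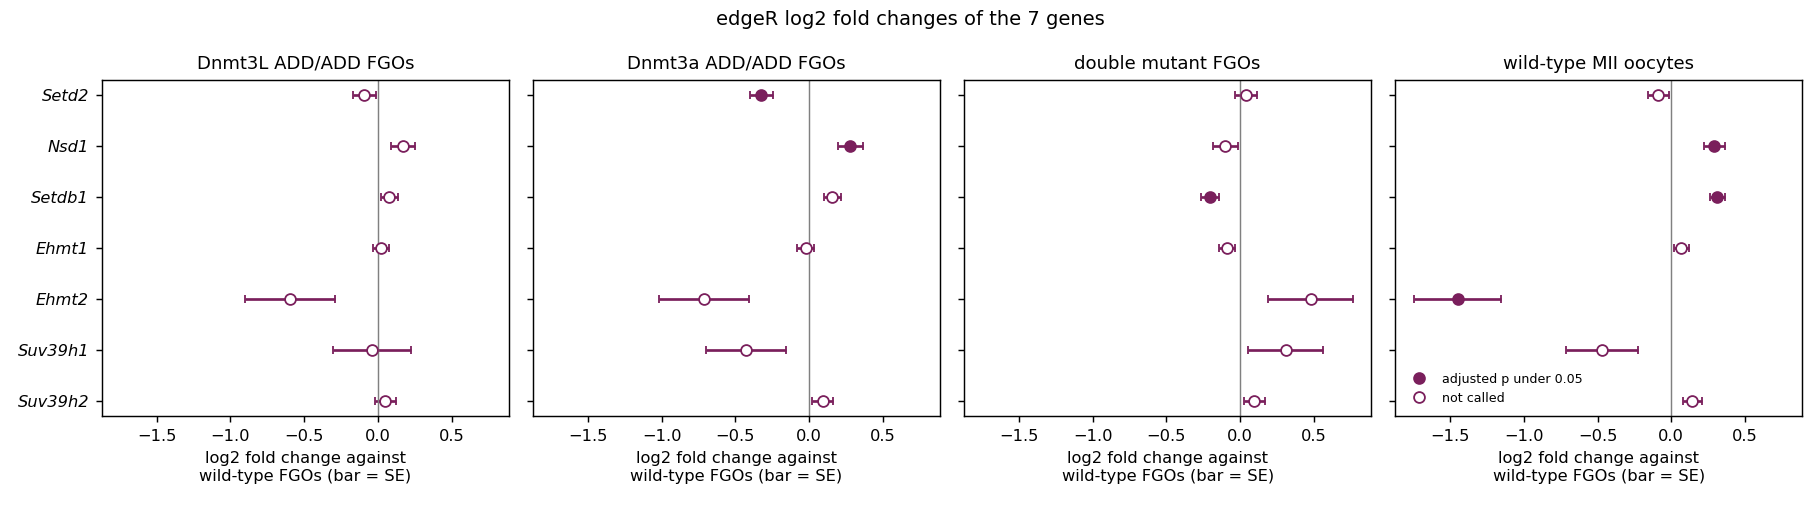
Log2 fold change against 18 wild-type FGOs (edgeR, bars for SE) of each gene in the 3 mutants and in MII oocytes, filled where the adjusted p was under 0.05. The filled points are Setd2 and Nsd1 in Dnmt3a ADD/ADD FGOs, Setdb1 in double mutant FGOs, and Nsd1, Setdb1 and Ehmt2 in MII oocytes.

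MII oocytes are the stage reached when a wild-type FGO completes maturation without new transcription. They had higher relative levels of Setdb1 and Nsd1 and a lower one of Ehmt2 than wild-type FGOs. Levels are relative to the other RNA of a library. Neither the RNA content of an oocyte nor the length of poly(A) tails was measured, so a higher value need not mean more molecules. Of the 7 members 3 were called where 39.1% of all 15784 genes were, 2 higher (16.5% of all genes) and 1 lower (22.6% of all genes). Setdb1 ran from 64.7 to 76.6 RPKM in MII oocytes (median 70.7), all 10 above the highest of 18 wild-type FGOs at 63.6 RPKM. Its log2 fold change was 0.31 ± 0.05 (SE, adjusted p = 1.46e-06 from edgeR). Nsd1 ran from 63.0 to 73.2 RPKM (median 67.7), with 8 of 10 MII oocytes above the highest wild-type FGO, and changed by 0.29 ± 0.07 (adjusted p = 0.000821 from edgeR).

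Ehmt2 was the only member past 2-fold, a size that 9.20% of all genes reached. It ran from 0.07 to 0.74 RPKM in MII oocytes (median 0.38, 4 to 50 counts), all 10 under the wild-type FGO median of 0.93 and 5 of 10 under the lowest FGO. The log2 fold change was -1.45 ± 0.30 (SE, adjusted p = 0.000124 from edgeR), and -1.04 to -1.82 against either set of wild-type FGOs. Its partner Ehmt1 stood at 12.9 ± 1.48 RPKM in MII oocytes and 12.3 ± 1.03 RPKM in FGOs, with a log2 fold change of 0.07 ± 0.05 (adjusted p = 0.32 from edgeR). The change of Ehmt1 was 0.18 (adjusted p = 0.0165) against the 8 FGOs under 80% and 0.01 (adjusted p = 0.925 from edgeR) against those of at least 80%. Setd2 (-0.09 ± 0.07, adjusted p = 0.364 from edgeR) and Suv39h1 (-0.47 ± 0.25, adjusted p = 0.124) were not called. Suv39h2 missed the threshold (0.14 ± 0.06, adjusted p = 0.0691 from edgeR) and passed it against wild-type FGOs of at least 80% (0.31, adjusted p = 1.18e-05). It also passed among libraries of at least 80% mapped reads alone (0.25 ± 0.05, adjusted p = 0.000403 from edgeR, 7 against 10 oocytes), with the class as a covariate (0.19 ± 0.05, adjusted p = 0.00408), or when wild-type FGO replicate 1, 2, 3 or 7 or MII replicate 9 was left out (up to 0.20). Among libraries of at least 80% in both stages Setdb1 (0.25), Nsd1 (0.23) and Ehmt2 (-1.07) were also called, and among those under 80% (3 against 8 oocytes) none was, with values of 0.38, 0.36 and -1.82. Over the 5 groups the mean of Ehmt2 was lowest in MII oocytes and highest in double mutant FGOs (1.66 ± 0.90 RPKM, SD, n = 8). In the 8 wild-type FGOs under 80%, the set of the double mutant, Ehmt2 was at 1.53 ± 0.93 RPKM (SD). The part of granulosa and cumulus cells in these values was not tested.

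**Figure D5:**
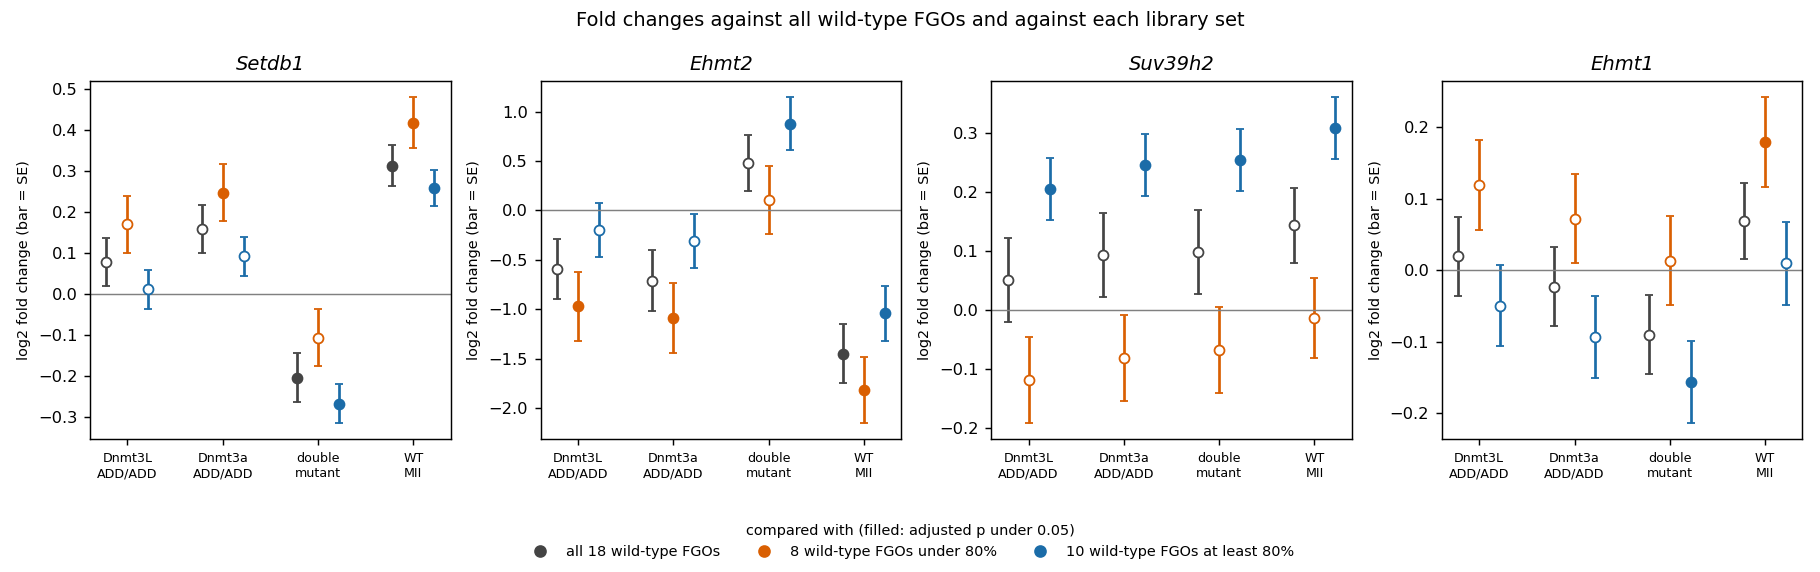
Log2 fold change (edgeR, bars for SE) of Setdb1, Ehmt2, Suv39h2 and Ehmt1 in the 3 mutants and MII oocytes, against all 18 wild-type FGOs, the 8 with under 80% mapped reads or the 10 with at least 80%, filled where the adjusted p was under 0.05. Suv39h2 is called in all 4 groups against the set of at least 80% (0.20 to 0.31) and in none against the other set, where its values lie below 0.

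Beyond these 7, lists of 49 related genes were read in the main fits only, and 48 passed the filter on low counts. Their calls were not repeated by class of mapped reads. In Dnmt3a ADD/ADD FGOs 6 of 48 were higher (12.5%, against 8.06% of all genes) and 3 lower (6.25%, against 7.61%), with a median log2 fold change of 0.02 over the lists and -0.03 over all genes. Among those higher were the demethylase Kdm4a (0.25 ± 0.06, adjusted p = 0.00197 from edgeR), the H3K36 methylation reader Psip1 (0.14 ± 0.04, adjusted p = 0.0198) and Mecom (0.49 ± 0.15, adjusted p = 0.0223). Lower were Morc2a (-0.43 ± 0.08, adjusted p = 0.000177 from edgeR), which works with the HUSH complex beside SETDB1, the HP1 gene Cbx1 (-0.19 ± 0.05, adjusted p = 0.00522) and Riox2 (-0.27 ± 0.09, adjusted p = 0.032). In Dnmt3L ADD/ADD FGOs 2 of 48 were higher, Kdm4a (0.20 ± 0.06, adjusted p = 0.0279 from edgeR) and the HP1 gene Cbx5 (0.14 ± 0.04, adjusted p = 0.0406), and 0 lower, beside 3.07% and 3.06% of all genes.

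In double mutant FGOs 3 of 48 were lower (6.25%, against 6.74% of all genes) and 0 higher (against 5.51%), with a median of -0.02 and 45 not called. The 3 were the histone chaperone genes Supt6 (-0.37 ± 0.09, adjusted p = 0.00815 from edgeR), whose product binds elongating RNA polymerase II with SETD2, and Supt16 (-0.24 ± 0.07, adjusted p = 0.0186), and Morf4l1 (-0.38 ± 0.10, adjusted p = 0.0124), whose chromodomain reads H3K36 methylation. Against Dnmt3a ADD/ADD FGOs, all 4 genes of the SETD2 and elongation list (Iws1, Supt6, Supt16 and Ssrp1) were lower in the double mutant. Supt6 differed most clearly (-0.51 ± 0.11, adjusted p = 0.00053 from edgeR). Of the H3K9 demethylases, Kdm4b was higher (0.72 ± 0.22, adjusted p = 0.0121 from edgeR) and Kdm4a lower (-0.36 ± 0.07, adjusted p = 0.000171). The HUSH gene Fam208a (0.48 ± 0.14, adjusted p = 0.00876 from edgeR) and Morc2a (0.38 ± 0.09, adjusted p = 0.00152) were higher, and the H3K36 demethylase gene Kdm2b (-0.46 ± 0.10, adjusted p = 0.00128) was lower. In all, 6 of 48 were higher (12.5%, against 16% of all genes) and 15 lower in that comparison (31.2%, against 14.9% of all genes), and 5 were higher (10.4%, against 12.8%) and 11 lower (22.9%, against 11.4%) than in Dnmt3L ADD/ADD FGOs, where Kdm4c had the widest difference of the genes named by the rule (1.61 ± 0.53, adjusted p = 0.0243 from edgeR) and Kdm7a a narrow one (0.16 ± 0.05, adjusted p = 0.0294). The effect of the Dnmt3a mutation differed with the Dnmt3L genotype for 23 of 48, with a higher value in 8 (16.7%, against 19.3% of all genes) and a lower one in 15 (31.2%, against 16.3%), the latter including all 4 genes of the SETD2 and elongation list. Over all genes, with the class as a covariate, 5601 calls became 2226 for the difference of effects. In that setting 3800 became 186 between the double mutant and the Dnmt3L mutant. Against wild-type FGOs under 80%, the 1926 calls of the double mutant became 217. The part of the class in the list calls was not tested.

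In MII oocytes 13 of 48 were higher (27.1%, against 16.5% of all genes) and 10 lower (20.8%, against 22.6%), with a median of -0.01. Higher were Wiz (0.26 ± 0.05, adjusted p = 1.56e-05 from edgeR), a zinc-finger partner of the EHMT1 and EHMT2 dimer, the H3K36 methylation reader Phf1 (0.23 ± 0.04, adjusted p = 3.51e-05) and Kdm4a (0.25 ± 0.05, adjusted p = 6.64e-05). The HP1 gene Cbx3 was lower (-1.08 ± 0.22, adjusted p = 0.000114 from edgeR), as were Zfp644 (-0.59 ± 0.14, adjusted p = 0.000986), whose product also joins that dimer, and Fam208a (-0.43 ± 0.11, adjusted p = 0.00144).

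The genes whose log2 CPM followed each member most closely over the 52 oocytes were sought among 8315 genes with a mean of at least 10 CPM. These correlations are a description, since oocytes of a group and of a library set share their level. Setd2 was nearest to Hsph1 (Pearson r = 0.85), Ankhd1 (0.85) and the H3K4 demethylase gene Kdm1b (0.80), Nsd1 to Camsap2 (0.95), Lsm14a (0.94) and Fndc3a (0.94), and Setdb1 to Wwc2 (0.94), Eps15l1 (0.94) and Smn1 (0.93). Ehmt2 followed Syncrip (0.89), Kdm5a (0.88) and Rbm5 (0.87), and Ehmt1 followed Map3k4 (0.76), Cgn (0.71) and Ddx27 (0.71). Suv39h2 was nearest to Tcl1 (0.83), Unc50 (0.81) and Trim13 (0.78), and Suv39h1, with few counts, to AC125070.4, Zbtb49 and Spata2 (0.55, 0.52 and 0.52). Nsd1 and Setdb1 had many such neighbours, with 27.9% and 27.7% of the 8315 genes above 0.5, against 2.55% for Ehmt1. Among the members, Nsd1 and Setdb1 went together over the oocytes (r = 0.82), and Ehmt2 ran against both (r = -0.78 with Nsd1 and -0.75 with Setdb1), whereas the r of Ehmt1 with Ehmt2 was -0.03.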

How the data were processed

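Per the labels and the study's methods, single-oocyte libraries (SMART-Seq HT kit, cumulus cells washed off) were aligned by the authors to mm10 with STAR, and the deposited tables hold unnormalized read counts per gene with its length, made with featureCounts per the methods and HTSeq per the submitters' processing notes. The annotation release, strand setting and treatment of multi-mapped reads are not given in the sources used here. Embryo and methylation data of the series were not used here.

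Genes passing edgeR's filterByExpr (minimum count 10) were tested with edgeR 4.0.16 (R 4.3.3) by its quasi-likelihood test with TMM scaling and Benjamini-Hochberg adjustment over all genes tested. All FGO genotypes entered 1 fit. MII oocytes were compared with wild-type FGOs in a second fit of all 52 oocytes, mutant FGOs included. A gene was called at an adjusted p under 0.05, and fold changes over 2 were counted apart. DESeq2 1.42.0, edgeR's exact test, other scalings, filters and library sets were alternatives. RPKM used TMM-scaled totals, and ratios were tested by two-sided permutation in Python 3.11.15 with scipy 1.17.1. The fit was tested on simulated counts. No pair of libraries of the same group agreed within sampling noise, and pairs across groups were not compared.

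All 7 genes were named in every comparison, with up to 3 called pathway genes per direction (lowest p) and, per gene, the 3 genes with the highest correlation of log2 CPM (prior count 2). The genes and lists were chosen with earlier results of these data known. Depth limits Suv39h1 and Ehmt2, with as few as 3 and 4 counts in an oocyte.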

Additional observations from a re-analysis of the deposited data

Results flagged for a closer look

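The effect of the Dnmt3a mutation differed with the Dnmt3L genotype by the test of that difference in 4 genes (edgeR, adjusted p under 0.05). The effect with the Dnmt3L mutation minus the effect without it was 0.45 for Setd2, -0.55 for Nsd1, -0.44 for Setdb1 and 1.78 for Ehmt2 on the log2 scale, beside 35.6% of all genes past the same threshold. The double mutant libraries all have under 80% mapped reads and the Dnmt3L ADD/ADD libraries all at least 80%, and the part of this in the difference cannot be told apart from genotype without the other groups.

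In 2 of 28 sets of values screened (7 genes in 4 groups of 8 or 10 oocytes), 1 oocyte stood apart from the rest of its group by Dixon's criterion, which chance meets in about 1 of 20. Setdb1 in double mutant replicate 6 was at 57.7 RPKM, where the next oocyte was at 51.2. Ehmt2 in Dnmt3L ADD/ADD replicate 1 was at 1.13 RPKM, where the next was at 0.84.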

How the results depend on the processing

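Of 570 recomputed fold changes and ratios, 494 kept their direction and side of the threshold, 22 came past it, 19 fell short of it and 35 changed sign. Leaving out 1 library gave 1372 values, of which 1339 kept both, 12 fell short, 8 came past the threshold and 13 changed sign. The cause of these changes was not tested.

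In the Dnmt3L mutant 1 was called against wild-type FGOs under 80% (Ehmt2), 1 against those of at least 80% (Suv39h2) and 1 with both groups of at least 80%, in place of 0. Over all genes 3344 of 15173, 1051 of 15338 and 1335 of 14438 were called in these settings. In the Dnmt3a mutant the 2 became 4 against wild-type FGOs under 80%, 0 with both groups under 80% and 0 with both of at least 80%, 3 against those of at least 80%, with the covariate and with DESeq2, and 1 to 4 when 1 library was left out. Over all genes 4377 of 15173, 137 of 15611, 1392 of 15070, 2238 of 15338, 2549 of 15726 and 2906 of 15726 were called in the settings before the last, in that order. In the double mutant the 1 became 0 against wild-type FGOs under 80%, 4 against those of at least 80%, 0 with the class as a covariate and 0 with both groups under 80%. Over all genes 217 of 15173, 5799 of 15338, 410 of 15726 and 130 of 14279 were called in these settings, so the counts of members moved with those of all genes. In MII oocytes the 3 became 0 with both groups under 80%, and 4 against either set, with the covariate and with both groups of at least 80%. Over all genes 1589 of 15464 were called with both groups under 80%. Against the sets under and of at least 80% the counts were 7373 of 15360 and 4282 of 15370. With the covariate 5913 of 15784 were called, and 3790 of 14314 with both groups of at least 80%. Between the double mutant and the Dnmt3L mutant the 3 became 0 with the covariate, where 186 of 15726 genes were called, and 1 to 3 without 1 library. Comparisons within a class were chosen after seeing the data.

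Replicate numbers did not pair the oocytes. Over 48 pairs the correlation of same-numbered oocytes ran from -0.52 to 0.47 and exceeded 0.1 in 13. With the replicate block, 1 member was called in the Dnmt3L mutant, 4 in the Dnmt3a mutant and 0 in the double mutant, where 2830, 4109 and 227 of 15726 genes were. Ehmt2 between the double mutant and the Dnmt3L mutant was at 0.90 with the block (adjusted p = 0.053 from edgeR). The block also turned the sign of Suv39h2 (-0.11, -0.073 and -0.065 in the Dnmt3L, Dnmt3a and double mutants, 0.11 for the difference of effects), of Ehmt1 (0.079 in the Dnmt3a mutant and 0.012 in the double mutant) and of Nsd1 (0.0085 in the double mutant).

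Other values changed sign as follows. Against wild-type FGOs under 80%, Suv39h2 was at -0.12, -0.082, -0.068 and -0.014 in the Dnmt3L, Dnmt3a and double mutants and in MII oocytes and at 0.13 for the difference of effects, Ehmt1 at 0.072 and 0.013 in the Dnmt3a mutant and the double mutant, Nsd1 at 0.0021 in the double mutant and the log2 ratio of Suv39h2 to Suv39h1 at -0.0044 in the Dnmt3L mutant. In the Dnmt3L mutant, Ehmt1 was at -0.050 and Suv39h1 at 0.025 against wild-type FGOs of at least 80%, -0.039 and 0.031 with the covariate, and -0.051 and 0.026 with both groups of at least 80%. With both groups under 80%, Ehmt1 was at 0.043 in the Dnmt3a mutant and 0.0088 in the double mutant, and Suv39h2 at -0.071 in the latter. With the covariate, Suv39h2 was at -0.049 in the double mutant against wild-type FGOs, -0.17 against the Dnmt3a mutant and -0.23 against the Dnmt3L mutant, and -0.065 between the Dnmt3a mutant and the Dnmt3L mutant, and Ehmt1 at 0.020, 0.029 and 0.0095 in the last 3 pairs and 0.059 for the difference of effects. Suv39h2 in the double mutant against the Dnmt3a mutant was at -0.00068 with RLE scaling and -0.00062 with DESeq2. Without 1 library, the values that crossed 0 ran from -0.015 to 0.051 (Ehmt1) and -0.11 to 0.092 (Suv39h1) in the Dnmt3L mutant, -0.077 to 0.0070 (Ehmt1) in the Dnmt3a mutant, and for Suv39h2 -0.015 to 0.052 in the double mutant against the Dnmt3a mutant and -0.078 to 0.012 for the difference of effects.

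Over all genes, the 964 called in the Dnmt3L mutant became 467 without the filter, 3344 against wild-type FGOs under 80% and 2830 with the replicate block. The 2465 in the Dnmt3a mutant became 4377 and 4109 in the last 2 settings, 137 with both groups under 80% and 1392 with both of at least 80%. The 1926 in the double mutant became 1184 without the filter, 1101 with only the 2 groups in the fit, 217 and 5799 against wild-type FGOs under and of at least 80%, 410 with the covariate, 227 with the block and 130 with both groups under 80%. The 6170 in MII oocytes became 1589 and 3790 with both groups under and of at least 80%. With the covariate, 4861 became 2035 and 3800 became 186 between the double mutant and the Dnmt3a mutant or the Dnmt3L mutant, and 5601 became 2226 for the difference of effects. Between the Dnmt3a mutant and the Dnmt3L mutant, 2 genes became 2 to 46 over the alternatives. By CPM without division by length, wild-type FGOs had Nsd1 first, then Setd2 and Setdb1, and all 6 steps separated.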
